A study of Danio rerio with 6 samples.

Results

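The 10 genes described here belong to the unfolded protein response of the endoplasmic reticulum (ER): hspa5, hsp90b1, dnajb9a, dnajb9b, xbp1, atf4b, ddit3, pdia4, sdf2l1 and herpud1. They were found by gene symbol among the 23876 genes of the deposited expression table, and a gene listed with several transcripts was represented by its transcript of highest mean value. All 10 were present and all 10 passed the filter on low values (3 or more libraries at a value of 1 or above). Messenger RNA was sequenced from whole zebrafish larvae, 7 days after fertilization, to compare znf469 mutant with wild type larvae. The mutant larvae were homozygous for an allele that the series names znf469-4del and the samples label as a knockout, znf469-KO; the sources used here do not say how the allele was made. The control larvae were labelled wild type, with no strain named, and both groups were raised in E3 medium under the same conditions. Each group had 3 libraries, and each library came from the RNA of a pool of 50 larvae.

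The unfolded protein response is the programme that cells start when proteins that fold poorly collect in the ER. In mammals the sensors in the ER membrane are IRE1, PERK and ATF6. They lower translation and raise the transcription of chaperones, folding enzymes and factors that return misfolded proteins to the cytosol for degradation. Cells that secrete much protein, such as pancreatic acinar cells, hepatocytes and cells that make collagen, depend on it. The roles given below are known mainly from mammals and yeast. Most of these genes also act in unstressed cells, so their RNA levels are not by themselves a reading of ER stress.

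Summed over all transcripts of the table, the recovered reads came to 17023269 to 19156581 per library. Transcripts of the same gene can repeat the same reads. With 1 transcript per gene the sums were 8111192 to 9683579. Values are the authors' normalized read counts, in which 1 read was worth 0.937 to 1.08 depending on the library. Tests used limma on log2(value + 1) over all 22803 genes that passed the filter, with Benjamini-Hochberg adjustment and a threshold of 0.05, and every log2 fold change is mutant minus wild type on that scale, where changes of low genes appear smaller than they are. Of all genes tested, 1023 (4.49%) were called, 526 (2.31%) as higher and 497 (2.18%) as lower in the mutant. The targeted gene itself, znf469, had 233, 186 and 209 normalized read counts in the mutant pools and 296, 198 and 206 in the wild type pools (log2 fold change -0.13, SE 0.20, limma adjusted p = 0.786), so its RNA level did not separate the groups. A pair of libraries stood apart from their group. The chi-square per gene between replicates was 5.76 for mutant replicates 1 and 3 and 6.96 for wild type replicates 2 and 3, against 13.5 to 23.5 for the pairs that hold mutant replicate 2 or wild type replicate 1. The clock gene per3 separated the pools in the same way: it had 354, 95.9 and 518 normalized read counts in mutant replicates 1 to 3, and 564, 88.3 and 86.1 in wild type replicates 1 to 3. Of 29 clock genes tested, 3 (10.3%) were called higher and 0 lower, beside 2.31% of all genes called higher. That number was 0 without mutant replicate 1, mutant replicate 3 or wild type replicate 2, and 4 without wild type replicate 1. Whether the pools were bred from different clutches is not stated in the labels, so p-values measure the spread between these pools. All 30 marker genes fixed for the tissues of a whole larva had a value of at least 3.23 in all 6 libraries; 7 of them were called lower and 0 higher, with a median log2 fold change of -0.37. In bulk RNA of whole larvae, fewer cells of a type and less RNA per cell cannot be told apart.

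Of the 10 genes, 1 passed the threshold: dnajb9b, higher in the mutant. None was lower. This 1 gene was also the only member at an unadjusted p under 0.05, which 18.2% of all genes tested had, and edgeR, DESeq2 and limma-voom on the recovered reads each called 1 member higher and 0 lower. Over the 10 genes the median log2 fold change was 0.12, beside -0.00145 over all genes tested, with 7 values above 0 and 3 below. Without mutant replicate 2 the median of the 10 genes was -0.04, beside -0.03 over all genes in that fit, so its sign rested on that pool. The mutant pools lay wholly above the wild type pools for 1 of the 10 genes, and for 2647 (11.6%) of all genes tested. In the authors' deposited table, dnajb9b had a log2 fold change of 1.42 and a q-value of 0.00094; 8.33% of all transcripts listed there had a q-value under the same threshold.

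**Figure D1:**
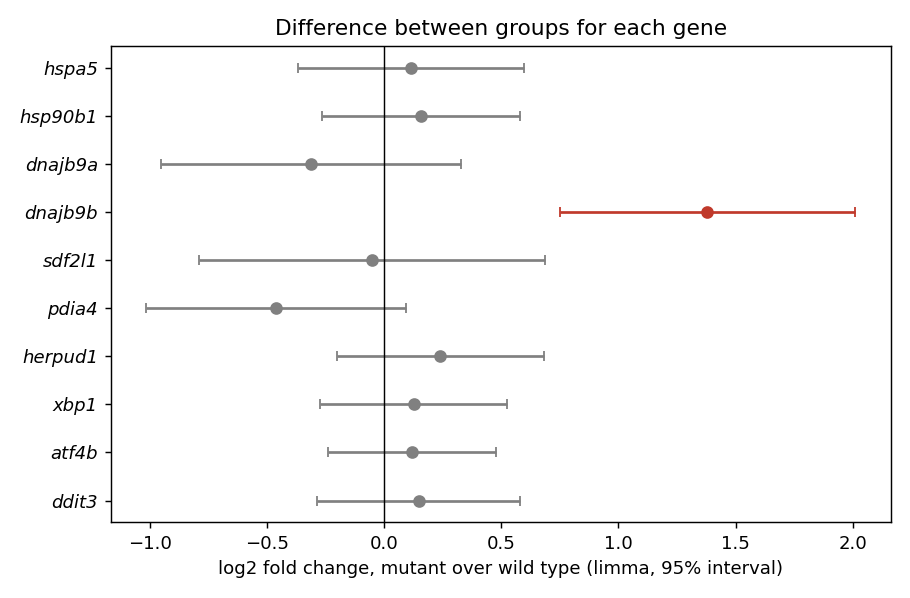
Log2 fold change (mutant minus wild type, on the log2(value + 1) scale, x axis) of each of the 10 genes, as the limma estimate with its 95% confidence interval. The interval of dnajb9b runs from 0.75 to 2.01, and the intervals of the other 9 genes include 0.

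dnajb9b encodes a J-domain protein of the ER lumen, 1 of the pair of zebrafish counterparts of mammalian DNAJB9 (ERdj4). In mammals that protein binds the chaperone BiP, drives its ATPase cycle, and holds BiP on the sensor IRE1, which keeps IRE1 quiet. The mutant pools had 64.6, 59.3 and 52.6 normalized read counts of dnajb9b (69, 55 and 51 reads), against 19.8, 25.5 and 20.8 in the wild type pools (21, 26 and 21 reads). Every mutant pool held more than any wild type pool, and the groups lay far apart relative to their spread. The means were 58.8 ± 6.05 in the mutant and 22.0 ± 3.04 in wild type (SD, n = 3 each). dnajb9b was thus 2.60-fold higher in the mutant (95% confidence interval 1.68 to 4.03; log2 fold change 1.38, SE 0.28, limma adjusted p = 0.0234). Unlike most of the set, it was not raised in mutant replicate 2 relative to the other mutant pools: the ratio to their mean was 1.01.

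Under 19 alternative settings the log2 fold change of dnajb9b stayed between 1.24 and 1.48, and it passed the threshold in 15 of them, with an adjusted p of 0.00743 to 0.108. With 1 pool left out the call ended without mutant replicate 1 (adjusted p = 0.108), mutant replicate 3 (0.0869), wild type replicate 2 (0.0872) or wild type replicate 3 (0.0715), and it held without mutant replicate 2 (0.0400) or wild type replicate 1 (0.0343).

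Its paralog dnajb9a, the other zebrafish counterpart of DNAJB9, was not called. It had 41.2, 76.5 and 47.4 normalized read counts in the mutant pools and 66.1, 60.8 and 72.2 in the wild type pools. Mutant replicates 1 and 3 were the lowest of the 6 pools and mutant replicate 2 was the highest, so the groups overlapped. The means were 55.0 ± 18.8 in the mutant and 66.4 ± 5.72 in wild type (SD, n = 3 each), with a log2 fold change of -0.31 (95% confidence interval -0.95 to 0.33, limma adjusted p = 0.624). Without mutant replicate 2 the value for dnajb9a was -0.57 (adjusted p = 0.216), and without mutant replicate 1 it was -0.13 (adjusted p = 0.900). The table listed 3 transcripts of dnajb9a. Another had the same value as the one used here in every library. The last carried 58.7% to 79.5% of that value, with a log2 fold change of -0.43. The ratio of dnajb9b to dnajb9a values, which is not corrected for transcript length and is compared only between pools, was 1.57, 0.775 and 1.11 in the mutant pools and 0.300, 0.419 and 0.288 in the wild type pools. Every mutant pool thus had a higher ratio than any wild type pool, a difference of 3.34-fold between the geometric means. Its two-sided exact permutation p was 0.1, the smallest that 3 pools against 3 can give. This ratio was chosen after the values were seen, so that p is not an independent test of it. dnajb9b alone already separated the groups, so the separation of the ratio is not separate evidence. The sources used here do not say how reads that fit both paralogs were counted.

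**Figure D2:**
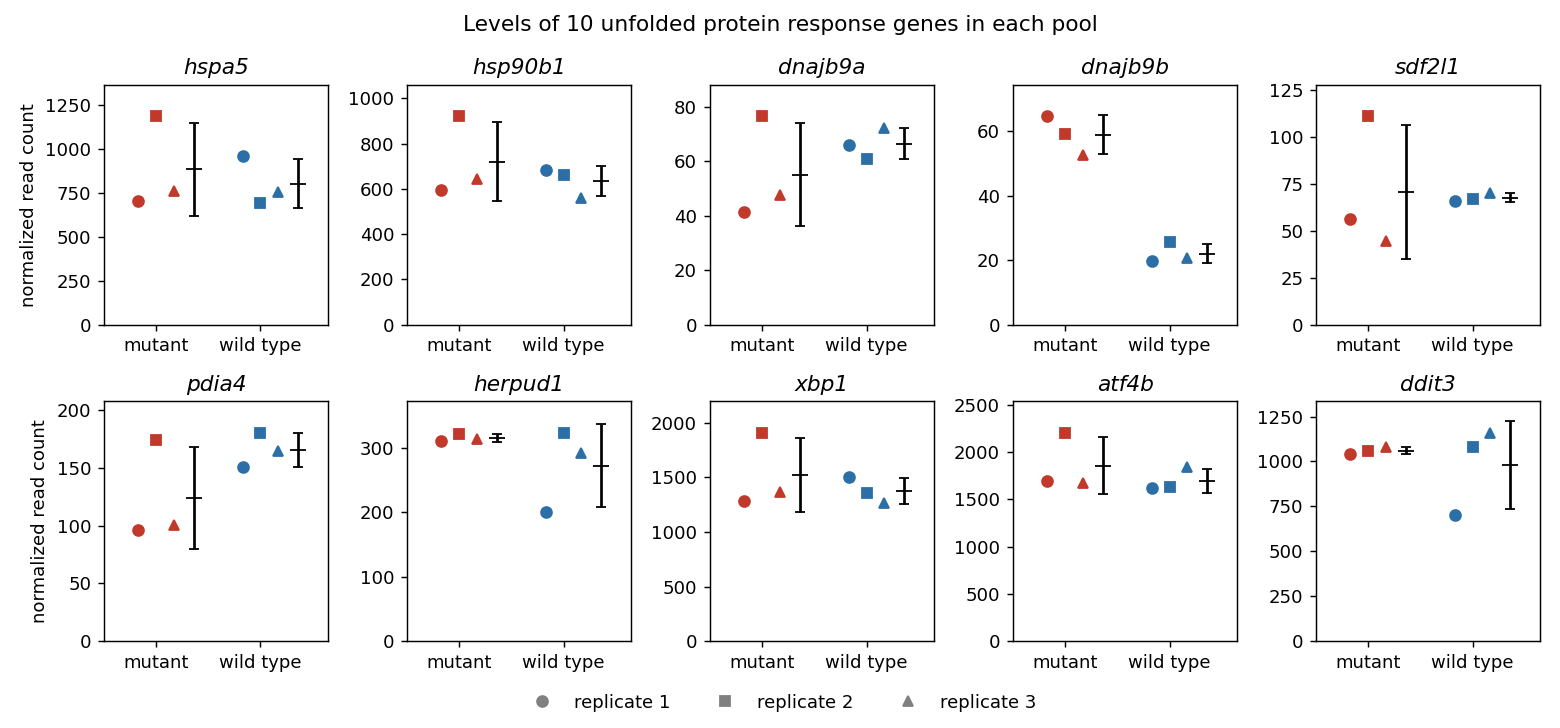
Normalized read counts (y axis, starting at 0) of the 10 genes, 1 panel per gene, with znf469 mutant pools on the left and wild type pools on the right; points are pools, marker shapes are replicate numbers, and bars are mean ± SD. Only in the dnajb9b panel do all mutant points lie above all wild type points, and 6 panels have their highest point in mutant replicate 2.

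Among the major chaperones of the ER lumen, neither hspa5 nor hsp90b1 differed beyond the spread between pools. hspa5 encodes BiP (GRP78), the Hsp70 chaperone of the ER, which binds unfolded chains and, in mammals, the sensors themselves; its transcript is the most used marker of ER stress. hspa5 had 702, 1187 and 764 normalized read counts in the mutant pools and 959, 694 and 754 in the wild type pools. Mutant replicate 2 was the highest of all 6 pools, 1.62 times the mean of the other mutant pools, while mutant replicate 1 and wild type replicate 2 were the lowest and nearly equal. The means were 884 ± 264 in the mutant and 803 ± 139 in wild type (SD, n = 3 each), a log2 fold change of 0.11 (SE 0.22, limma adjusted p = 0.840). The 95% confidence interval of the fold, 0.774 to 1.51, includes no change and increases of up to 1.51-fold. Without mutant replicate 2 the log2 fold change of hspa5 was -0.12.

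hsp90b1 encodes GRP94, the Hsp90 chaperone of the ER, whose clients in mammals include integrins, Toll-like receptors and insulin-like growth factors. The mutant pools had 595, 921 and 645 normalized read counts and the wild type pools 686, 661 and 561. Mutant replicate 2 was again the highest, at 1.49 times the mean of the other mutant pools, and those lay within the wild type range. The log2 fold change was 0.16 (95% confidence interval -0.26 to 0.58, limma adjusted p = 0.723), and it was -0.03 without mutant replicate 2.

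pdia4 and sdf2l1 encode a folding enzyme and a partner of BiP. pdia4 encodes ERp72, a protein disulfide isomerase that forms and rearranges disulfide bonds. It had 96.5, 175 and 101 normalized read counts in the mutant pools and 151, 180 and 164 in the wild type pools. Mutant replicates 1 and 3 were below every wild type pool, whereas mutant replicate 2 lay inside the wild type range, at 1.77 times the mean of the other mutant pools. The means were 124 ± 43.8 in the mutant and 165 ± 14.7 in wild type (SD, n = 3 each), a log2 fold change of -0.46 (SE 0.25, 95% confidence interval -1.02 to 0.09, limma adjusted p = 0.372) that did not pass the threshold. The size of the pdia4 difference depended on mutant replicate 2, but its sign did not. Without that pool the log2 fold change was -0.73 (limma adjusted p = 0.0592). With wild type replicate 1 omitted as well it was -0.80 (limma adjusted p = 0.00768), past the threshold. That fit called 5191 of 21938 genes tested. It leaves out the pools that stood apart from their groups in these same data, so this p is not an independent test. Over the 19 alternative settings the log2 fold change of pdia4 was -0.80 to -0.31.

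sdf2l1 encodes a small ER protein that in mammals works in a complex with BiP and J-domain proteins and keeps misfolded proteins from aggregating. It had 56.2, 111 and 44.3 normalized read counts in the mutant pools, against 66.1, 66.7 and 70.3 in the wild type pools. The wild type pools were nearly equal (67.7 ± 2.25, SD, n = 3), and the mutant pools lay on both sides of them (70.5 ± 35.6, SD, n = 3). Mutant replicate 2 stood at 2.21 times the mean of the other mutant pools, the highest such ratio among the 10 genes. The log2 fold change of sdf2l1 was -0.05 (95% confidence interval -0.79 to 0.69, limma adjusted p = 0.957), and its sign changed in several of the alternative settings.

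herpud1 encodes a membrane protein of the ER that in mammals assembles the ubiquitin ligase complex of ER-associated degradation and is induced by ER stress. The mutant pools had 310, 322 and 313 normalized read counts, and the wild type pools 200, 324 and 293. The mutant pools agreed closely, and the wild type group was spread by replicate 1, the lowest of all pools at 0.649 times the mean of the other wild type pools. The log2 fold change was 0.24 (95% confidence interval -0.20 to 0.68, limma adjusted p = 0.582), and it was 0.03 without wild type replicate 1. The table listed 3 transcripts of herpud1, and the other transcripts carried 89.1% to 95.9% of the value of the one used here in every library.

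The 3 transcription factors of the set were not called. xbp1 encodes the bZIP factor whose mRNA is cut by IRE1 and rejoined to give the active protein, the most conserved arm of the response. It had 1283, 1907 and 1366 normalized read counts in the mutant pools and 1499, 1354 and 1265 in the wild type pools. Mutant replicate 2 was the highest, at 1.44 times the mean of the other mutant pools, and the rest overlapped. The log2 fold change of xbp1 was 0.13 (95% confidence interval -0.27 to 0.53, limma adjusted p = 0.770), and it was -0.05 without mutant replicate 2. Because the table holds 1 transcript of xbp1, its cut and uncut forms were not separated, and the values are total xbp1 mRNA.

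atf4b encodes 1 of the pair of zebrafish counterparts of ATF4, the factor that in mammals is made when PERK or a related kinase slows translation, and which is controlled largely at the level of translation rather than RNA. It had 1690, 2206 and 1675 normalized read counts in the mutant pools and 1622, 1628 and 1843 in the wild type pools. Mutant replicate 2 was the highest, at 1.31 times the mean of the other mutant pools, and those were close to wild type replicates 1 and 2. The log2 fold change was 0.12 (95% confidence interval -0.24 to 0.48, limma adjusted p = 0.758), and it was -0.01 without mutant replicate 2.

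ddit3 encodes CHOP, a bZIP factor downstream of ATF4 that is associated in mammals with cell death under lasting ER stress. The mutant pools had 1042, 1059 and 1081 normalized read counts, and the wild type pools 703, 1079 and 1160. As with herpud1, the mutant pools agreed closely (1061 ± 19.7, SD, n = 3), while wild type replicate 1 was the lowest of all, at 0.628 times the mean of the other wild type pools (group mean 980 ± 244, SD, n = 3). The log2 fold change was 0.15 (95% confidence interval -0.29 to 0.58, limma adjusted p = 0.752), and it was -0.08 without wild type replicate 1. A second transcript of ddit3 carried 42.9% to 51.3% of the value of the first in mutant pools and 51.5% to 56.9% in wild type pools, and its own log2 fold change was -0.05.

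Within the groups the 10 genes fell into 3 patterns over the pools. In the first, hspa5, hsp90b1, xbp1, atf4b, sdf2l1 and dnajb9a had their highest value in mutant replicate 2, and pdia4 had its highest mutant value there. The share of members highest in that pool was 6 of 10 (60%), beside 6227 (27.3%) of all genes tested. In the second, ddit3 and herpud1 were nearly level over the mutant pools and wild type replicates 2 and 3 and low in wild type replicate 1. The third was dnajb9b alone, with 0.83, 0.71 and 0.54 in mutant replicates 1 to 3 and -0.83, -0.48 and -0.76 in wild type replicates 1 to 3, as log2(value + 1) minus its mean over the 6 pools.

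**Figure D3:**
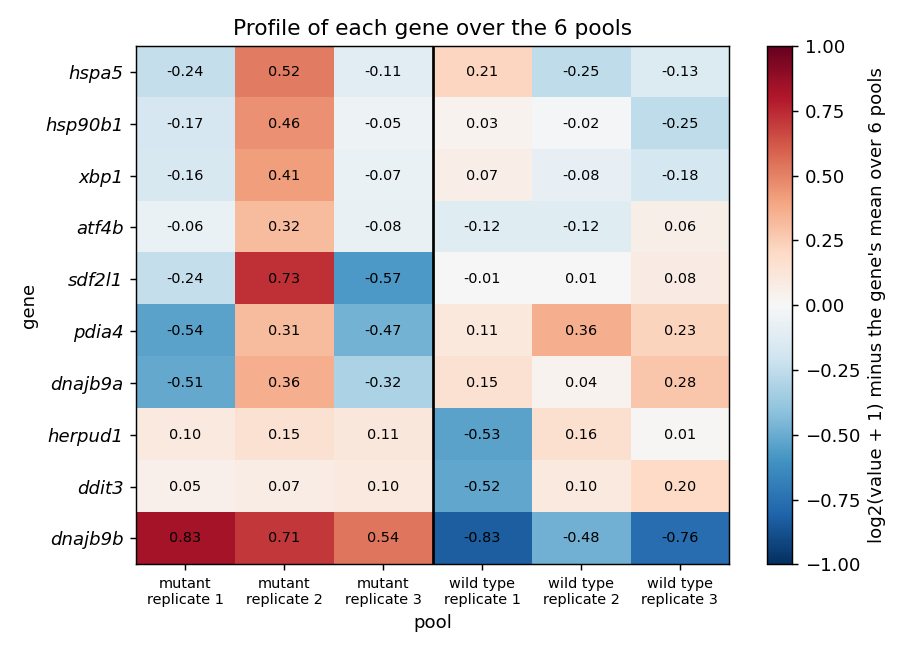
Log2(value + 1) of each gene minus its mean over the 6 pools (colour scale), with genes in rows and pools in columns, mutant pools on the left. Most genes peak in mutant replicate 2, ddit3 and herpud1 are lowest in wild type replicate 1 (-0.52 and -0.53), and dnajb9b splits by genotype.

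The likeness of these profiles was measured as the mean absolute difference of the centred log2(value + 1) over the 6 pools, where 0 is identical. The closest of the 45 pairs was hsp90b1 and xbp1 at 0.0403, followed by ddit3 and herpud1 at 0.0666 and hspa5 and xbp1 at 0.0997. dnajb9a was closest to pdia4, at 0.108, and lay 0.846 from its paralog dnajb9b. dnajb9b was the farthest from the others, between 0.570 (herpud1) and 0.921 (pdia4). Outside the set, the 5 genes nearest to hspa5 among 10549 genes with a mean of 100 or more were jun, an immediate early transcription factor (0.0559), flvcr1, a heme and choline transporter (0.0570), pm20d1.1 (0.0720), fuca1.1, a lysosomal fucosidase (0.0724) and degs1, a ceramide desaturase (0.0727). None of these 5 genes was called between the groups, which follows from their choice by likeness to hspa5, itself not called.

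Markers of tissues that secrete much protein were measured in the same pools. The 24 symbols fixed for exocrine pancreas matched 18 genes. Of these, 15 (83.3%) were highest in mutant replicate 2 like the first pattern, beside 27.3% of all genes tested. The summed values of the 18 genes were 115122, 197658 and 133957 in the mutant pools and 139308, 119681 and 88800 in the wild type pools. Over all genes tested the sum was also highest in mutant replicate 2, at 1.03e+07, against 8.47e+06 and 8.36e+06 in mutant replicates 1 and 3. None of the 18 was called by limma, edgeR or limma-voom, and DESeq2 called 3 as higher. In limma 4 of the 18 had an unadjusted p under 0.05, all higher in the mutant, beside 18.2% of all genes in either direction. Liver markers, all 20 of them found, summed to 58529, 75352 and 57686 in the mutant pools and 72758, 84614 and 76322 in the wild type pools. Of the 20, 0 were called higher and 2 (10%) lower, beside 2.18% of all genes called lower. The called genes were tfa (transferrin, log2 fold change -1.40) and fabp10a (the liver fatty acid binding protein, -0.74). Over the 20 markers the median log2 fold change was -0.098, with 9 values above 0 and 11 below. The number of liver markers called lower was 0 without wild type replicate 2, 1 without mutant replicate 1, mutant replicate 3 or wild type replicate 3, and 3 without mutant replicate 2. Markers of matrix-secreting cells, 20 of 21 found, had 14 called lower and 0 higher, with sums of 9718, 17419 and 8524 in the mutant pools and 66695, 71477 and 65075 in the wild type pools. No defining marker sum was near 0 in any pool, and the part of these tissues in the values of the 10 genes was not tested.

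The wider ER network was described by 6 lists of 193 further symbols, which matched 180 different genes, all tested. Of these, 8 (4.44%) were called, and all 8 were higher in the mutant. Of all genes tested, 4.49% were called in either direction, 2.31% as higher and 2.18% as lower. The median log2 fold change of the 180 genes was 0.17, beside -0.00145 over all genes. Of the 180 genes, 111 (61.7%) were highest in mutant replicate 2, beside 27.3% of all genes tested. Without mutant replicate 2 the median was 0.06, beside -0.03 over all genes. That fit called 8 of the 180 genes higher and 2 lower, and 412 of all genes higher and 772 lower. The lists overlap in function with the 10 genes and were chosen with earlier results of these data known. The groups did not overlap, in either direction, for 56 of the 180 genes and for 5331 of the 22803 genes tested. Most genes named from these lists were picked by a small p, so pools without overlap are no added evidence for them.

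None of the 15 tested sensors and transcription factors of the response was called by limma, edgeR, DESeq2 or limma-voom, with 3 at an unadjusted p under 0.05, a share close to that of all genes. The smallest p belonged to creb3l3b, a relative of ATF6 whose mammalian counterpart is active in liver and gut, with 136, 155 and 198 normalized read counts in the mutant pools and 137, 85.3 and 61.4 in the wild type pools (log2 fold change 0.84, SE 0.30, limma adjusted p = 0.155). eif2ak3, which encodes PERK, had 363, 319 and 358 normalized read counts in the mutant pools and 399, 471 and 465 in the wild type pools (log2 fold change -0.36, SE 0.15, adjusted p = 0.251). The groups did not overlap for eif2ak3, with all mutant pools below all wild type pools. atf6, named here for its role, had 261, 198 and 309 in the mutant pools and 197, 182 and 174 in the wild type pools (log2 fold change 0.45, limma adjusted p = 0.267), its lowest mutant pool barely above its highest wild type pool. ern1, which encodes IRE1 and is likewise named for its role, had few reads, with 22.5, 2.15 and 22.7 in the mutant pools and 12.3, 5.88 and 5.94 in the wild type pools (log2 fold change 0.49, limma adjusted p = 0.789). atf4a, the paralog of atf4b, had 2381, 3634 and 2403 in the mutant pools and 1506, 2088 and 2415 in the wild type pools (log2 fold change 0.48, limma adjusted p = 0.293).

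Among 29 targets of ATF4 and CHOP and regulators of the initiation factor eIF2 alpha, 2 (6.90%) were called, both higher in the mutant. Of all genes tested, 2.31% were called higher. At an unadjusted p under 0.05 were 10 of the 29 genes, 8 higher and 2 lower, beside 18.2% of all genes. Without mutant replicate 2 there were 6 higher and 5 lower at that level, and without wild type replicate 2 there were 3 higher and 0 lower. The median log2 fold change of the 29 genes was 0.28, and 0.12 without mutant replicate 2. ddit4 encodes REDD1, an inhibitor of the growth kinase complex mTORC1 that also answers to glucocorticoids and low oxygen. It had 1290, 1517 and 1381 normalized read counts in the mutant pools and 585, 706 and 692 in the wild type pools, and every mutant pool was above every wild type pool (log2 fold change 1.08, SE 0.15, limma adjusted p = 0.0038). chac1, a glutathione-degrading enzyme induced through ATF4 in mammals, had 9652, 13388 and 9396 in the mutant pools and 5013, 5417 and 6732 in the wild type pools (log2 fold change 0.91, SE 0.21, adjusted p = 0.0356). The groups again did not overlap, although omitting any single pool other than mutant replicate 2 ended the call of chac1, with an adjusted p of up to 0.194. ddit4 passed the threshold in all 19 alternative settings.

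No gene was called among 43 ER chaperones, cochaperones and oxidoreductases outside the set. At an unadjusted p under 0.05 were 6 of them, 3 in each direction, beside 18.2% of all genes. edgeR and limma-voom also called 0, and DESeq2 called 1, as lower. The median log2 fold change was 0.03, and 62.8% were highest in mutant replicate 2, beside 27.3% of all genes tested. Without that pool the median was -0.16, beside -0.03 over all genes in that fit. There 1 gene of the list was called lower, and 9 were lower and 1 higher at an unadjusted p under 0.05. The smallest p belonged to cdnf, a neurotrophic factor that resides in the ER, which had 21.5, 39.9 and 26.8 normalized read counts in the mutant pools and 53.8, 53.9 and 111 in the wild type pools (log2 fold change -1.24, SE 0.37, limma adjusted p = 0.0935). calr3b, a calreticulin, had 62.8, 84.0 and 80.4 in the mutant pools and 165, 131 and 106 in the wild type pools (log2 fold change -0.80, SE 0.24, limma adjusted p = 0.0952). The pools of the groups did not overlap for either gene.

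In ER-associated degradation, the process that herpud1 serves, 3 of 35 genes (8.57%) were called, all higher in the mutant. Of all genes tested, 2.31% were called higher. At an unadjusted p under 0.05 were 11 of the 35 genes, 9 higher and 2 lower, beside 18.2% of all genes. The 3 called genes encode the parts of 1 machine: the AAA ATPase p97 and its cofactors Ufd1 and Npl4. These pull ubiquitylated proteins out of the ER membrane. ufd1l had 922, 1322 and 940 normalized read counts in the mutant pools and 319, 458 and 445 in the wild type pools (log2 fold change 1.38, SE 0.20, limma adjusted p = 0.0050). nploc4 had 1073, 1174 and 1206 in the mutant pools and 431, 564 and 586 in the wild type pools (log2 fold change 1.14, SE 0.16, adjusted p = 0.0047). For vcp, which encodes p97, the values were 3791, 5119 and 3719 in the mutant pools and 1534, 2038 and 2229 in the wild type pools (log2 fold change 1.12, SE 0.20, adjusted p = 0.0117). All 3 genes had every mutant pool above every wild type pool. ufd1l and nploc4 were called in all 19 alternative settings and vcp in 18, missing the threshold without wild type replicate 2 (adjusted p = 0.0635). The p97 complex is known to act in the cytosol and nucleus as well.

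Protein import into the ER gave 1 call among 31 genes (3.23%), as higher, beside 2.31% of all genes called higher. At an unadjusted p under 0.05 were 4 of the 31, beside 18.2% of all genes. srp72, a subunit of the signal recognition particle, had 1336, 1711 and 1315 normalized read counts in the mutant pools and 822, 893 and 971 in the wild type pools (log2 fold change 0.69, SE 0.16, limma adjusted p = 0.0381). Of these 31 genes, 83.9% were highest in mutant replicate 2, beside 27.3% of all genes tested. ER exit gave 2 calls among 28 genes (7.14%), both higher, beside 2.31% of all genes called higher. Both encode cargo-binding subunits of the COPII coat. At an unadjusted p under 0.05 were 8 of the 28, all higher, beside 18.2% of all genes in either direction. Without mutant replicate 2 there were 3 higher and 1 lower at that level. sec24a had 3528, 4260 and 3858 in the mutant pools and 2207, 2428 and 2313 in the wild type pools (log2 fold change 0.74, SE 0.15, adjusted p = 0.0218), and sec24d, which carries procollagen in zebrafish, had 505, 541 and 560 against 345, 283 and 198 in wild type (log2 fold change 0.99, SE 0.21, adjusted p = 0.0250). For all 3 genes the mutant pools lay above the wild type pools without overlap, which their choice by p makes likely. The calls of sec24a and sec24d ended without mutant replicate 1, mutant replicate 3, wild type replicate 2 or wild type replicate 3 (adjusted p up to 0.120 for sec24a and 0.113 for sec24d), and that of sec24d also when transcripts were summed (adjusted p = 0.0572). Omitting any single pool other than mutant replicate 2 ended the call of srp72 (adjusted p up to 0.186).

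**Figure D4:**
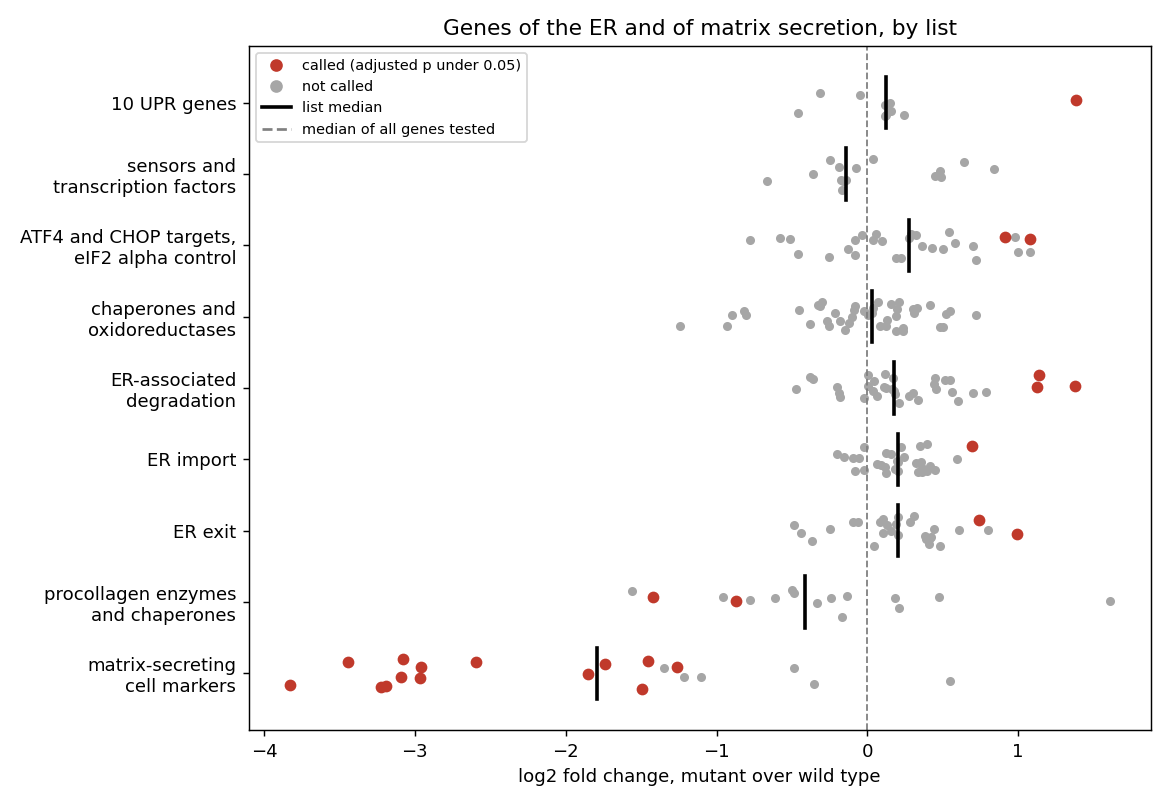
Log2 fold change (mutant minus wild type, on the log2(value + 1) scale) of every tested gene by list, with called genes in red, the median of each list as a bar and the median of all genes tested as a dashed line. The called genes of the ER lists lie above 0, and the medians of these lists run from -0.14 for sensors and transcription factors to 0.28 for ATF4 and CHOP targets. The procollagen enzymes and chaperones and the matrix-secreting cell markers are also drawn. Their medians are -0.41 and -1.80, and their called genes lie below 0.

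The enzymes and chaperones of procollagen, which fold the main matrix cargo of the ER, were described beside these lists. Of 16 tested genes 2 (12.5%) were called, both lower in the mutant, beside 2.18% of all genes called lower. At an unadjusted p under 0.05 were 7 of the 16, 2 higher and 5 lower, beside 18.2% of all genes. The called genes were p3h1, a prolyl hydroxylase (log2 fold change -1.42, limma adjusted p = 0.0359), and serpinh1a, a counterpart of the collagen chaperone HSP47 (log2 fold change -0.87, adjusted p = 0.0415). Both calls ended when any single pool other than mutant replicate 2 was omitted, and without mutant replicate 2 the number called lower was 3. The log2 fold changes of the 16 genes ran from -1.56 to 1.605, with 4 above 0 and 12 below. In some settings 1 gene was called higher: pseudocount 5, summed transcripts, per3 as a covariate, and wild type replicate 1 and mutant replicate 2 both omitted. The median log2 fold change of the 16 genes was -0.41, beside 0.12 for the 10 genes, and the difference between these lists was not tested.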

How the data were processed

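The authors deposited 1 table that lists 45602 RefSeq transcripts from 23876 genes, with a signal value for each library. Per the file headers it also holds, for each transcript, the authors' p-value, q-value and log2 fold change. Libraries were made from poly(A)-selected RNA and sequenced as paired 150 bp reads of fragments of about 200 bp, per the labels' protocols. The submitters' processing notes name the build GRCz11. The sources used here do not name the aligner, the counter or the authors' test. In each library 100% of the deposited signal values were whole multiples of 1 step to within 0.001, so they were taken as read counts divided by 1 factor per library; in wild type replicate 3 that step (0.990) is so near 1 that it is harder to tell from rounding. For 99.8% of transcripts the authors' log2 fold change had the sign of mutant over wild type.

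The design allowed for raw counts or normalized values. Because the values were normalized, limma 3.58.1 (R 4.3.3) was fitted to log2(value + 1) with an intensity trend, without robust weights, for genes that reached 1 in 3 or more libraries, and p-values were adjusted over all 22803 genes. Alternatives were other pseudocounts (0.5 and 5), no filter or a minimum of 10, sums of transcripts or each transcript by itself, TMM rescaling, edgeR 4.0.16, DESeq2 1.42.0 and limma-voom on the recovered reads, per3 as a covariate, the replicate number as a block, and fits without 1 or 2 libraries. edgeR and DESeq2 each called the same number of the 10 genes as limma. The limma and edgeR fits were also tested on simulated data with known fold changes. The main comparison has no block, as the design had fixed. Same-numbered pools of the groups had correlations of deviations of 0.184, 0.183 and -0.394. With 3 pools a group such values cannot exclude a pairing. Between pools with different numbers these correlations ran from -0.411 (mutant replicate 2 with wild type replicate 1) to 0.416 (mutant replicate 3 with wild type replicate 1). The cause of these correlations was not tested.

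The 10 genes, the lists and the settings that leave out libraries or use per3 were chosen with earlier results of these data known. Of 330 list symbols outside the 10 genes, 312 were found (some symbols are the same gene, which is counted once), 18 of them by a synonym that a RefSeq gene table (assembly GRCz12tu) gives. The text names the 10 genes, znf469, per3 and the 5 genes most like hspa5. Per ER or procollagen list it names up to 4 called genes a direction or, with none called, the 2 with the smallest p. Marker lists of tissues are given as counts and sums, and the clock gene list as counts. The genes tfa, fabp10a, atf6, ern1, atf4a and the dnajb9b to dnajb9a ratio were added after their values were seen. No promoter, transcript or protein sequence and no coordinate was used here.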

Additional observations from a re-analysis of the deposited data

How the results depend on the processing

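Of the 10 genes, 1 was called higher under every alternative except 4 fits without 1 library, so the range over the fits without 1 library was 0 to 1; it was 0 without mutant replicate 1, mutant replicate 3, wild type replicate 2 or wild type replicate 3. Omitting wild type replicate 1 and mutant replicate 2 together leaves 2 pools a group, without the pools that stood apart from their groups. That fit called 1 member lower (pdia4), 30 of the 180 wider ER genes and 5191 of 21938 genes tested. It gave log2 fold changes of -0.042 for atf4b, -0.076 for ddit3 and 0.13 for znf469, whose sign was reversed. With per3 as a covariate 23 wider ER genes and 2097 of all genes were called, and sdf2l1 was at 0.10; it was at 0.045 with edgeR and 0.042 with DESeq2. Testing every transcript by itself called 1673. Leaving out 1 library gave 3 to 10 wider ER genes (4 without mutant replicate 1 or 3 or wild type replicate 3, and 3 without wild type replicate 2) and 253 to 1405 of all genes. The same fits gave log2 fold changes of -0.12 to 0.26 for hspa5, -0.032 to 0.28 for hsp90b1, -0.049 to 0.24 for xbp1, -0.010 to 0.19 for atf4b, -0.077 to 0.28 for ddit3, -0.43 to 0.22 for sdf2l1, -0.57 to -0.13 for dnajb9a and -0.24 to 0.048 for znf469; the cause of these changes was not tested. With the replicate block, dnajb9b had a log2 fold change of 1.38 (limma adjusted p = 0.0435), 1 member, 6 wider ER genes and 980 of all genes were called, and the calls of chac1 (adjusted p = 0.0529) and srp72 (0.0582) ended. Depth was lowest for dnajb9b, sdf2l1 and dnajb9a (21 to 103 reads per library).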
